A study of Mus musculus with 2 samples.

Results

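The genes described here are 9 known targets of the miR-290 and miR-302 microRNAs, found in both deposited count tables by the Ensembl identifier of each symbol in GENCODE release M21. They were Cdkn1a, Rbl2, Lats2, Casp2, Ei24, Tgfbr2, Rhoc, Mbd2 and Dkk1, all 9 of which had a row among 43629 genes. Polyadenylated RNA was sequenced in 2 libraries, replicates A and B, from ES cells, the pluripotent cells of the mouse blastocyst, with a Dgcr8 knockout genotype per the labels. Both carry a 129/Ola background and passage 7, and the knockout was made with paired CRISPR/Cas9 cuts, per the title of the series. Separate cultures, the number of clones and the codes KO2 and d5 in the titles are not explained in the labels. No wild-type library was analysed here. The values are therefore levels in knockout cells and differences between replicates, and no effect of the knockout was measured.

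MicroRNAs are short RNAs that guide Argonaute proteins to messenger RNAs, mostly through pairing of their seed with sites in the 3′ untranslated region (UTR), and lower the output of those messages. Dgcr8 is the RNA-binding partner of Drosha, and both are needed to cut most primary microRNA transcripts. In wild-type mouse ES cells the miR-290 cluster is the most abundant family, and with miR-302 it is known for keeping the passage from G1 to S phase short and for supporting self-renewal and reprogramming. The 9 genes act as brakes on the cell cycle (Cdkn1a, Rbl2, Lats2), in cell death (Casp2, Ei24), in signalling and cell shape (Tgfbr2, Rhoc, Dkk1) and in reading of methylated DNA (Mbd2).

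The mature microRNAs are shown first because their shared seed defines the family. Sequences are from RefSeq (GRCm38.p6), written 5′ to 3′, with the seed (bases 2 to 8) in capitals. Those of the miR-290 cluster lie on the plus strand of chromosome 7 and those of miR-302 on the plus strand of chromosome 3.
miR-291a-3p: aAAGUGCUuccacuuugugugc
miR-294-3p: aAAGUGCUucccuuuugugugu
miR-295-3p: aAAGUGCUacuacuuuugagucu
miR-302b-3p: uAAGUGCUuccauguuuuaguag
miR-302d-3p: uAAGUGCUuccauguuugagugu
miR-290a-3p: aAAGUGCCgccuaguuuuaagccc
miR-302c-3p: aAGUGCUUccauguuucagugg
The first 5 share the seed AAGUGCU, miR-290a-3p differs from it in the last seed base, and miR-302c-3p carries the same run shifted by 1 base. The seeds of miR-291b-3p and miR-293-3p in the miR-290 cluster are AAGUGCA and GUGCCGC, and miR-292a-3p and miR-302a-3p are further members of the clusters.

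All 9 genes held a match to this seed in the annotated 3′ UTR. The matches searched on the messenger strand were AGCACTTA (8mer), AGCACTT without the last A (7mer-m8), GCACTTA without the first A (7mer-A1) and the bare GCACTT (6mer), each place counted once as its longest type. In the longest annotated 3′ UTR of each gene, 5 of 9 had an 8mer (Cdkn1a, Rbl2, Lats2, Tgfbr2 and Mbd2) and 9 of 9 had a match of 7 bases or more, 15 such matches in all. Of 20658 protein-coding genes with a 3′ UTR, 2.99% had an 8mer and 17.8% a match of 7 bases or more. Reported targets are often found through such matches, so this count is a description of the set and no independent evidence.

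The matches below are the 8mers of Cdkn1a, Rbl2, Lats2 and Tgfbr2 and a 7-base match of each gene without an 8mer (the Mbd2 8mer, 289 bases after the stop codon, is not printed), each in a window of up to 30 bases of the messenger strand with the match in capitals. The Tgfbr2 gene is shown with its 8mer and with a match of another kind.
Cdkn1a 8mer: gtgggtgtcaaAGCACTTAgtgggtctgac
Rbl2 8mer: tttttcaataaAGCACTTAtaaatta
Lats2 8mer: agtatggaaagAGCACTTAttttgtggata
Tgfbr2 8mer: tcaaaacctaaAGCACTTAttttcaatcta
Casp2 7mer-m8: tataacctagaAGCACTTgtctctgctctt
Ei24 7mer-m8: gctgtttttttAGCACTTgccagctcctgt
Rhoc 7mer-m8: tattacacaccAGCACTTtatatatttttg
Dkk1 7mer-A1: tcctcagtgtgGCACTTAcctgtaaatgca
Tgfbr2 7mer-m8: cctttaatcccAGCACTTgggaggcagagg
On GRCm38 these windows lie at chr17:29100489-29100518 (Cdkn1a), chr8:91123819-91123844 (Rbl2), chr6:42281547-42281576 (Casp2) and chr3:104794320-104794349 (Rhoc) on the plus strand. Those on the minus strand are chr14:57691075-57691104 (Lats2), chr9:36779877-36779906 (Ei24), chr19:30546950-30546979 (Dkk1), and for Tgfbr2 chr9:116087760-116087789 and chr9:116085344-116085373.

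These windows differ in their surroundings. The Rbl2 8mer starts 1384 bases after the stop codon in a 3′ UTR of 1398 bases, and the last A of AATAAA, the usual polyadenylation signal, is its first base. AATAA directly followed by AGCACTT occurred in 13 of the 20658 3′ UTRs, whereas AATAAA lay in the last 30 bases of 53.0% of them. The second Tgfbr2 match, 5016 bases after the stop codon, sits in a run of letters typical of the B1 family of short interspersed repeats. The same 17 letters, the match with 5 bases on each side, surrounded 190 of the 3732 AGCACTT matches in all 3′ UTRs (5.09%), and among the 9 genes only this Tgfbr2 match. In Lats2 the 8mer (base 195) and a 7mer-m8 (base 294) lie close together near the stop codon.

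**Figure D1:**
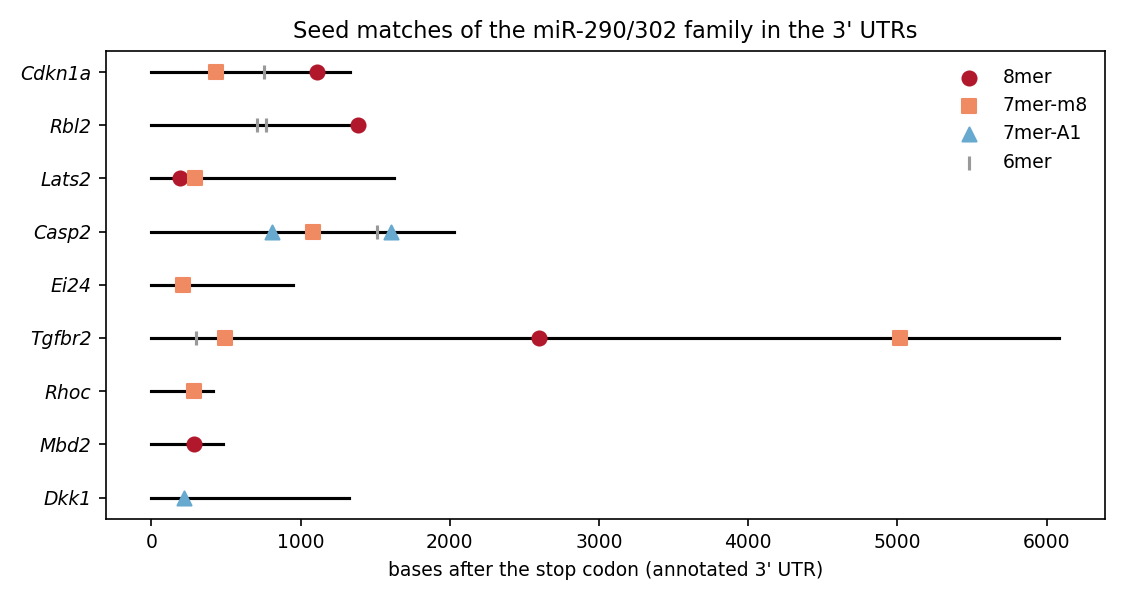
Annotated 3′ UTRs of the 9 target genes as lines in bases after the stop codon, with matches to the shared seed marked by type. Each gene has a match of 7 bases or more, and those of Tgfbr2 spread over a 3′ UTR of 6085 bases, against 416 bases in Rhoc.

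The number of matches was set against 3′ UTRs of similar length (within 20%), since longer ones hold more by composition alone. Casp2, with 3 matches of 7 bases or more in 2031 bases, had as many as only 0.530% of 2831 similar 3′ UTRs. Cdkn1a and Lats2, with 2 each, had as many as 1.31% and 2.60% of theirs. For the short 3′ UTRs of Rhoc (416 bases) and Mbd2 (480 bases), 5.23% and 6.30% of similar ones had any such match. The Tgfbr2 3′ UTR stands at the other end, since 62.4% of the 617 3′ UTRs of its length class had a match and 8.43% had 3 or more.

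Family members of the same genes had matches at about the share of all protein-coding genes. Of 18 paralogs, such as Cdkn1b and Cdkn1c for Cdkn1a or Rhoa and Rhob for Rhoc, none had an 8mer and 3 (Rbl1, Lats1 and Tgfbr1) had a 7-base match. These 3 are 16.7% of the paralogs, beside 17.8% of all protein-coding genes with a 3′ UTR. Since reported targets are often found through such matches, setting them against paralogs is a description and no independent evidence. The median 3′ UTR of the paralogs was longer, 1748.5 bases against 1334 for the 9 targets. Matches also depended on the transcript. Of 4 coding transcripts of Cdkn1a 2 held a match of 7 bases or more, of 4 of Lats2 1, of 4 of Rhoc 2, of 3 of Rbl2 2 and of 2 of Mbd2 1, while every coding transcript of Casp2, Ei24, Tgfbr2 and Dkk1 held one. Counts per gene do not tell which of these transcripts was present.

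Both libraries held 8 of the 9 genes at 1 CPM or more, though Tgfbr2 with only 44 counts in A and 72 in B. They held 27872396 counts (A) and 30327146 counts (B), so that 1 count is 0.0359 and 0.0330 CPM (counts per 1000000 counts). Dgcr8 itself had 1253 counts in A and 1942 in B, or 44.95 and 64.0 CPM. The labels do not give the deleted stretch, so a count over the whole gene does not check the genotype. The labelled cell type was checked with 6 ES cell genes, among them Pou5f1, Nanog and Sox2, which all passed 1 CPM in both libraries and summed to 4932 CPM in A and 4276 in B. Of 12 extraembryonic endoderm genes 6 passed 1 CPM in both, with a sum of 83.5 CPM in A and 237 in B. Lama1 alone gave 47.3 CPM of this sum in A and 142 in B, and Afp had 1 count in A and 0 in B. Of the 8 endoderm genes in the replicate test described below, 6 were higher in B by 1.5-fold or more and 1 in A. The shares of all genes at that size were 18.5% and 19.4%. With the GC and length correction described below, the log2 ratio of Amn, the gene higher in A, went from -0.63 to 0.15. Those of the 6 higher in B stayed positive. Fibroblast genes (5 of 11 passing) summed to 49.98 and 33.1 CPM with Postn, Lum and Prrx1 at 0 in both. Trophoblast genes (4 of 7) summed to 95.7 and 42.5, neuroectoderm genes (4 of 5) to 118 and 86.8, and mesoderm genes (1 of 5) to 12.0 and 8.44. Few genes gave most of each sum in A and B. They were Thy1 (31.4 and 21.9 CPM) for fibroblast, Tfap2c (76.9 and 33.5) for trophoblast and Kdr (9.08 and 6.30) for mesoderm. For neuroectoderm they were Tubb3 (74.7 and 45.4) and Nes (34.9 and 36.6). These sums differed between the replicates, and their part in the values below was not tested. In bulk RNA a smaller share of cells that express a gene and less RNA per cell cannot be told apart.

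Levels ranged over more than 2 orders of magnitude among the 9 genes, and 8 of them passed 1 CPM in both libraries. The median over the 9 genes was 22.0 CPM in A and 24.6 in B. Since longer transcripts give more reads, genes were ordered by RPKM, the CPM per 1000 bases of the longest annotated transcript. Values with ± are the mean and SD of both libraries (n = 2).

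Among the brakes on the cell cycle, Cdkn1a was the most abundant. Cdkn1a (ENSMUSG00000023067, chromosome 17, 29090976 to 29100727, plus strand) encodes p21, which inhibits cyclin-dependent kinases of the G1 and S phases. It held 3413 counts in A and 1277 in B, or 122 CPM (95% Poisson interval 118 to 127) and 42.1 CPM (39.8 to 44.5), a mean of 82.3 ± 56.8 CPM. Its level per length was 58.9 RPKM in A and 20.2 in B, and the mean of 39.6 exceeded 85.0% of 11984 protein-coding genes that reached 1 CPM in both libraries. Replicate A was the higher one, and the intervals, which cover counting error only, do not overlap.

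Rbl2 and Lats2 were present at low levels with close replicates. Rbl2 (ENSMUSG00000031666, chromosome 8, 91070057 to 91123844, plus strand) encodes p130, a pocket protein of the retinoblastoma family that represses E2F target genes in resting cells. It had 309 counts in A and 295 in B, or 11.1 and 9.73 CPM (10.4 ± 0.961). Annotated exons of Rbl2 share 693 bases with those of Aktip on the opposite strand, which held 1120 and 1027 counts, so the level of Rbl2 is uncertain if the counting did not use strand. The labels name a reverse-stranded library protocol but not the strand setting of the counting. Lats2 (ENSMUSG00000021959, chromosome 14, 57689662 to 57758388, minus strand), a kinase of the Hippo pathway that phosphorylates the coactivator Yap1, had 188 and 219 counts, or 6.75 and 7.22 CPM (6.98 ± 0.337). In the annotation, 42.4% of the exon bases of Lats2 are shared with Gm49361 on the same strand. Gm49361 has no row in the deposited counts, and how reads in the shared bases were assigned is not given. For Rbl2 and Lats2 the intervals of A and B overlap.

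The genes of cell death lay above Rbl2 and Lats2, and Ei24 but not Casp2 also lay above Cdkn1a. Ei24 (ENSMUSG00000062762, chromosome 9, 36779159 to 36797393, minus strand), a p53-induced protein of the endoplasmic reticulum with a role in autophagy, was the highest of the 9 with 8776 counts in A and 6377 in B. These were 315 CPM (308 to 322) and 210.3 CPM (205 to 215), or 136 and 91.1 RPKM, and the mean of 114 exceeded 95.8% of the protein-coding genes defined above. Casp2 (ENSMUSG00000029863, chromosome 6, 42264985 to 42282508, plus strand), an initiator caspase activated in the PIDDosome, had 613 and 816 counts, or 22.0 CPM (20.3 to 23.8) and 26.9 CPM (25.1 to 28.8). Ei24 was higher in A and Casp2 in B, with no overlap of the intervals in either.

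The signalling genes lay between high and barely detected levels. Rhoc (ENSMUSG00000002233, chromosome 3, 104788375 to 104794459, plus strand), a small GTPase that acts on the actin cytoskeleton, had 1111 counts in A and 1070 in B, or 39.9 and 35.3 CPM (37.6 ± 3.24). Tgfbr2 (ENSMUSG00000032440, chromosome 9, 116084293 to 116175360, minus strand), the type II receptor that binds TGF-beta ligands, had 44 and 72 counts, or 1.58 CPM (1.15 to 2.12) and 2.37 CPM (1.86 to 2.99). Dkk1 (ENSMUSG00000024868, chromosome 19, 30545863 to 30549665, minus strand), a secreted antagonist of Wnt signalling, had 5 and 25 counts, or 0.179 CPM (0.0582 to 0.419) and 0.824 CPM (0.533 to 1.22). Transcripts of Tgfbr2 share stretches of 100 bases or more at 95% identity or above with 28 other genes, so its count is uncertain. Rhoc was thus well expressed, Tgfbr2 lay barely above 1 CPM and Dkk1 below it in both libraries. Mbd2 (ENSMUSG00000024513, chromosome 18, 70568189 to 70626131, plus strand), which binds methylated CpG sites and recruits the NuRD complex, had 849 and 746 counts, or 30.5 CPM (28.4 to 32.6) and 24.6 CPM (22.9 to 26.4).

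**Figure D2:**
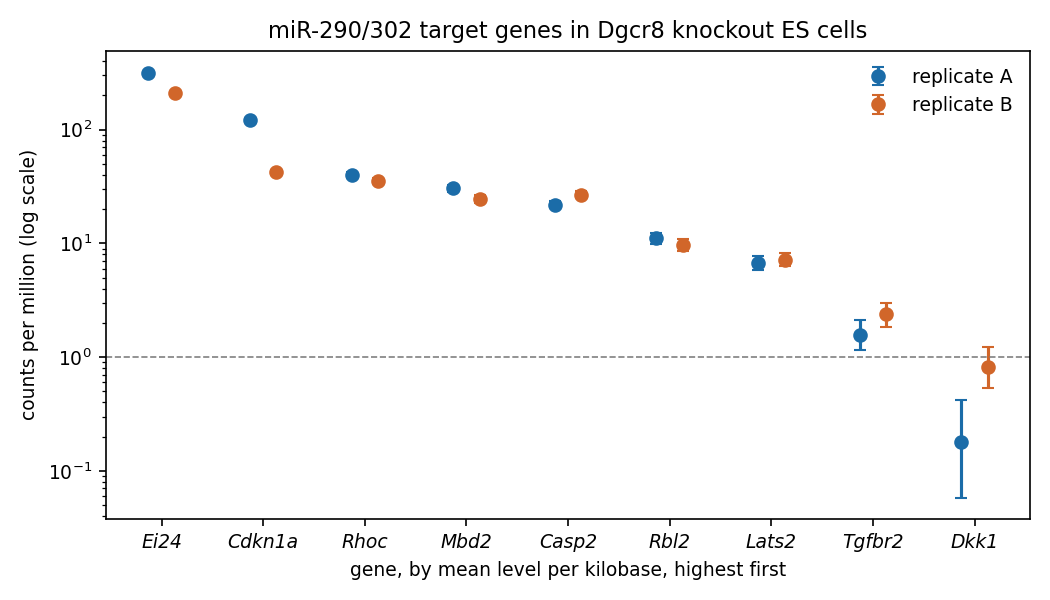
Level of each target gene in replicates A and B in CPM on a log axis, with exact 95% Poisson intervals and a dashed line at 1. Ei24 is highest at 315 and 210.3, Dkk1 lies under the line in both, and the widest gap at high counts is that of Cdkn1a.

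Per length the order was Ei24 (114 ± 32.0 RPKM), Cdkn1a (39.6 ± 27.3), Rhoc (31.3 ± 2.69), Mbd2 (14.1 ± 2.12), Casp2 (6.93 ± 0.985), Rbl2 (2.11 ± 0.195), Lats2 (1.35 ± 0.0649), Tgfbr2 (0.244 ± 0.0695) and Dkk1 (0.207 ± 0.188). Neighbours in this order had ranges over both libraries that did not overlap, except Cdkn1a with Rhoc and Tgfbr2 with Dkk1. In replicate B Rhoc stood before Cdkn1a and Dkk1 before Tgfbr2. The order also rests on the length used. With the union of all exons Rhoc came before Cdkn1a, and the other 7 genes kept their ranks. With the shorter coding transcript of Tgfbr2, 3476 bases in place of 8092, its level would be 0.454 RPKM in A and 0.683 in B. By their means Rbl2 and Lats2 exceeded 19.1% and 12.5% of the expressed protein-coding genes and Tgfbr2 0.492%, so the 9 known targets covered nearly the whole range of expression.

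The target genes were set beside members of the same gene families, per length. Cdkn1a was the highest of its family, 11.3-fold above Cdkn1b in A and 6.37-fold in B, and 3.10-fold and 2.31-fold above Cdkn1c, the other inhibitors of the Cip and Kip group. Rbl2 was the lowest of the pocket proteins, with Rb1 2.69-fold higher in A and 1.97-fold in B and Rbl1 1.78-fold and 2.49-fold higher. Lats1 exceeded Lats2 2.04-fold in A and 3.02-fold in B. Among the initiator caspases, Casp2 lay 1.27-fold above Casp9 in A and 2.45-fold in B, and 8.02-fold and 13.3-fold above Casp8. With the union of all exons Casp2 lay below Casp9 in A (3.12 against 3.67 RPKM) and above it in B (3.81 against 2.33).

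The type I receptor Tgfbr1, the partner of Tgfbr2 in signalling, was 23.9-fold higher per length in A and 23.1-fold in B. With the shorter Tgfbr2 transcript this gap would be smaller. Rhoa exceeded Rhoc 2.31-fold and 2.55-fold, and Rhob lay below Rhoc in both libraries. Mbd3, the NuRD subunit that takes the place of Mbd2 in a separate complex, was 8.51-fold above Mbd2 in A and 7.93-fold in B, while Mbd1 and Mbd4 lay below Mbd2. Dkk3 was the highest Dickkopf gene at 215 and 84 counts, Dkk2 had 0 counts in both libraries, where a limit of 3 counts allows 0.108 CPM for A and 0.0989 CPM for B, and Dkk4 had 2 and 0.

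**Figure D3:**
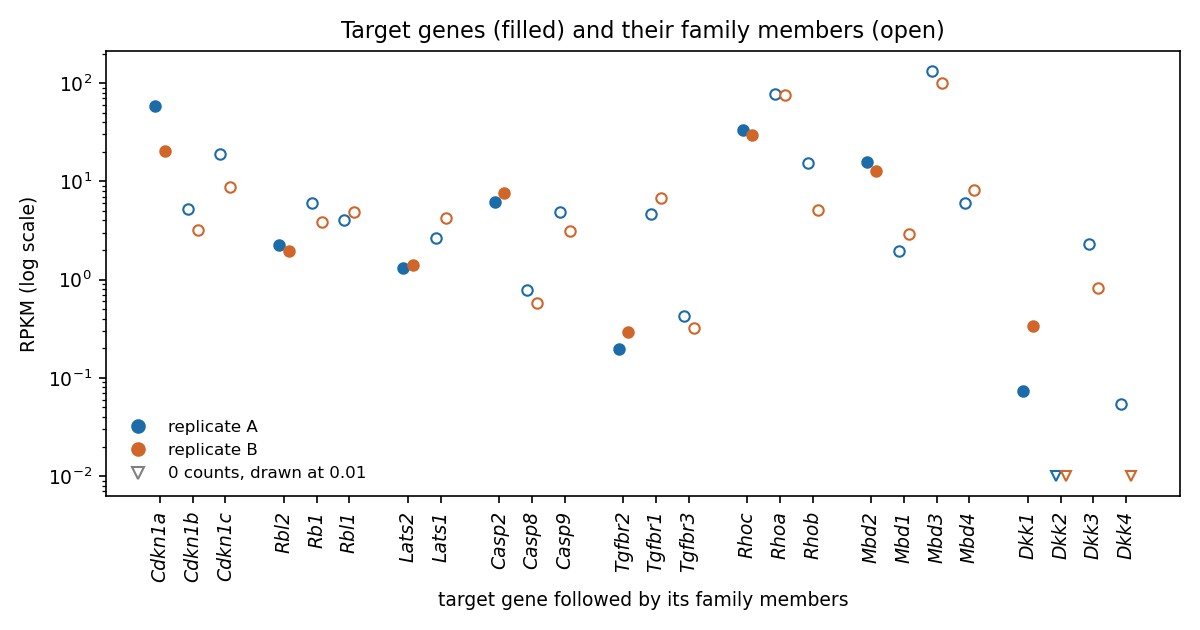
RPKM of 8 target genes (filled) and paralogs (open) in both replicates on a log axis, with genes at 0 counts drawn at 0.01. Cdkn1a tops its family in both libraries, Mbd3 and Rhoa lie above Mbd2 and Rhoc, and Tgfbr2 lies far below Tgfbr1.

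The replicates were compared to learn how firmly these levels are known. Of 14583 genes that reached 1 CPM in A or B, 76.5% differed between A and B (exact two-sided binomial test with TMM-scaled library sizes, Benjamini-Hochberg adjusted p under 0.05), 38.2% higher in A and 38.3% higher in B. A difference of at least 1.5-fold among them was found for 37.9%, with 19.4% of all genes higher in A and 18.5% higher in B. The test compares 2 libraries and no conditions, and a high count makes small differences pass it. Of the 8 target genes tested, 5 differed, 3 higher in A (Cdkn1a, Ei24 and Mbd2) and 2 higher in B (Casp2 and Tgfbr2). Only Cdkn1a of the 8 differed by 1.5-fold or more with a pseudocount of 0.5, against the 37.9% of all genes. With a pseudocount of 0.1, an alternative chosen for this count after seeing the data, Tgfbr2 passed 1.5-fold too (log2 ratio 0.65). The median log2 ratio of B over A was -0.09 for the 8 genes and -0.01 for all genes tested.

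Cdkn1a was 2.71-fold higher in A, a log2 ratio of -1.44 on the scale of TMM-scaled CPM + 0.5 (adjusted p = 3.98e-229, exact binomial test). Its size exceeded that of 95.7% of all genes tested. Ei24 was 1.403-fold higher in A (log2 ratio -0.49, adjusted p = 1.71e-94, exact binomial test). Casp2 was 1.30-fold higher in B (0.38, adjusted p = 1.32e-06, same test), and Mbd2 1.16-fold higher in A (-0.21, adjusted p = 0.00465, same test).

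The lowest genes were less certain. Tgfbr2 was 1.46-fold higher in B on that scale (0.54, adjusted p = 0.0219, exact binomial test), and its plain ratio was 1.60 with a 95% interval of 1.09 to 2.39 for counting error. Without TMM the adjusted p was 0.0506. Dkk1 stayed under the filter of 1 CPM, and its plain ratio of B over A was 4.90 (1.84 to 16.4). Without the filter it was called higher in B (adjusted p = 0.00104, exact binomial test). Rbl2, Lats2 and Rhoc had adjusted p of 0.483, 0.233 and 0.219 by the same test. Their plain ratios of B over A had 95% intervals of 0.795 to 1.10, 0.935 to 1.39 and 0.867 to 1.03.

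GC content moved with the difference between replicates. The median log2 ratio of protein-coding genes was 0.52 in the tenth with the lowest GC content and -0.58 in the tenth with the highest, which holds Rhoc (59.1% GC in its longest transcript). With a loess correction for GC content and length, Cdkn1a remained higher in A (-1.08), as did Ei24 (-0.37), and Casp2 remained higher in B (0.25). Rhoc turned from -0.08 to 0.53 (adjusted p = 8.34e-17, exact binomial test with the corrected share) and Mbd2 from -0.21 to 0.26 (adjusted p = 0.000687). Tgfbr2 fell to 0.13 (adjusted p = 0.433), and Rbl2 went from -0.09 to -0.40 (adjusted p = 0.00108). For Rhoc and Mbd2 the direction of the difference thus depends on this correction.

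**Figure D4:**
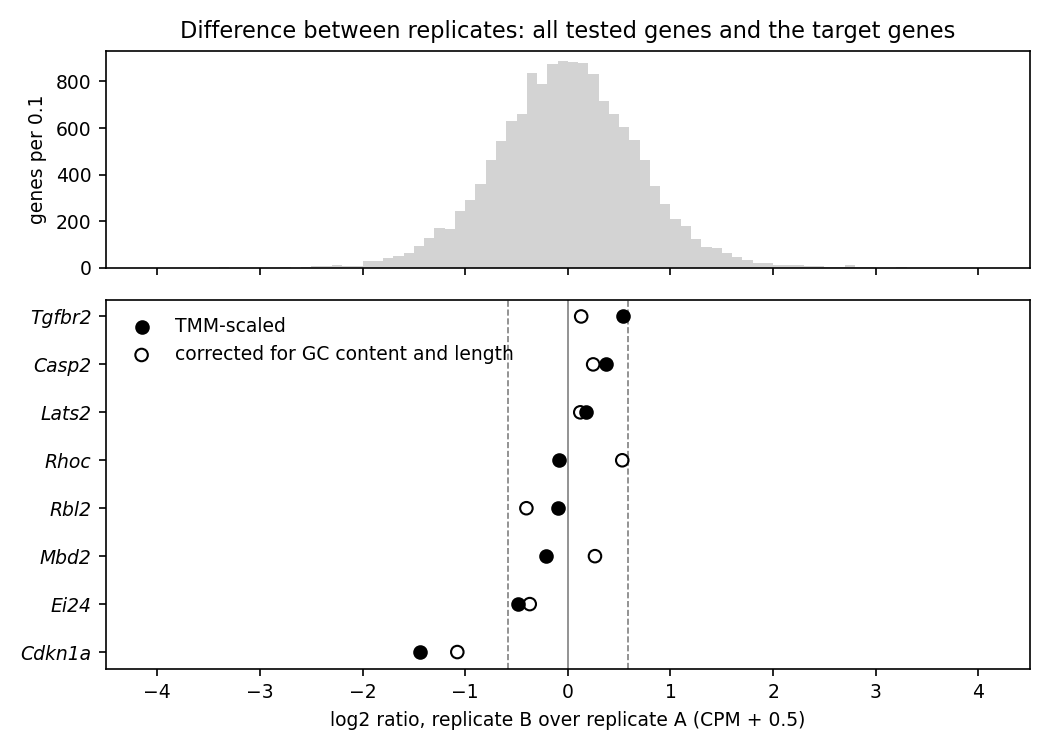
Histogram of the log2 ratio of replicate B over A for all 14583 tested genes within the plotted range (top), and the same ratio for the 8 tested target genes with TMM scaling (filled) and with GC and length correction (open). Dashed lines mark 1.5-fold, and only Cdkn1a lies beyond them, under both settings.

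Other genes described in the literature as targets of this family, some of them in human cells, were measured alongside. Of 19 such genes, 17 passed the filter, and 14 of these differed between the replicates, 6 higher in A and 8 higher in B, beside 38.2% and 38.3% of all genes tested. Without TMM 8 were higher in A and 7 in B, and all genes moved the same way, with 6418 of 14583 higher in A and 4837 in B. In the 3′ UTR, 16 of the 19 had a match of 7 bases or more and 6 an 8mer. The histone demethylase gene Kdm1a (349 ± 10.3 CPM), the cyclin gene Ccnd1 (259 ± 16.6) and the NuRD gene Gatad2a (188 ± 16.0) were the highest. At 1.5-fold or more, Lefty1 and Lefty2, secreted Nodal antagonists, were higher in A, 10.1-fold and 5.54-fold, with 4497 against 440 and 2584 against 464 counts. The cyclin gene Ccnd2 (3.44-fold), the histone methyltransferase gene Ash1l (2.17-fold) and the kinase gene Wee1 (1.52-fold) were higher in B. Of all genes tested, 19.4% were higher in A and 18.5% higher in B at this size. Without TMM 3 of the targets were higher in A and 2 in B at this size, as were 3359 and 2204 of 14583 genes. With GC and length corrected, 3 other reported targets differed by 1.5-fold or more, 2 higher in A and 1 higher in B. The share of all genes at this size was not computed with that correction.

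**Figure D5:**
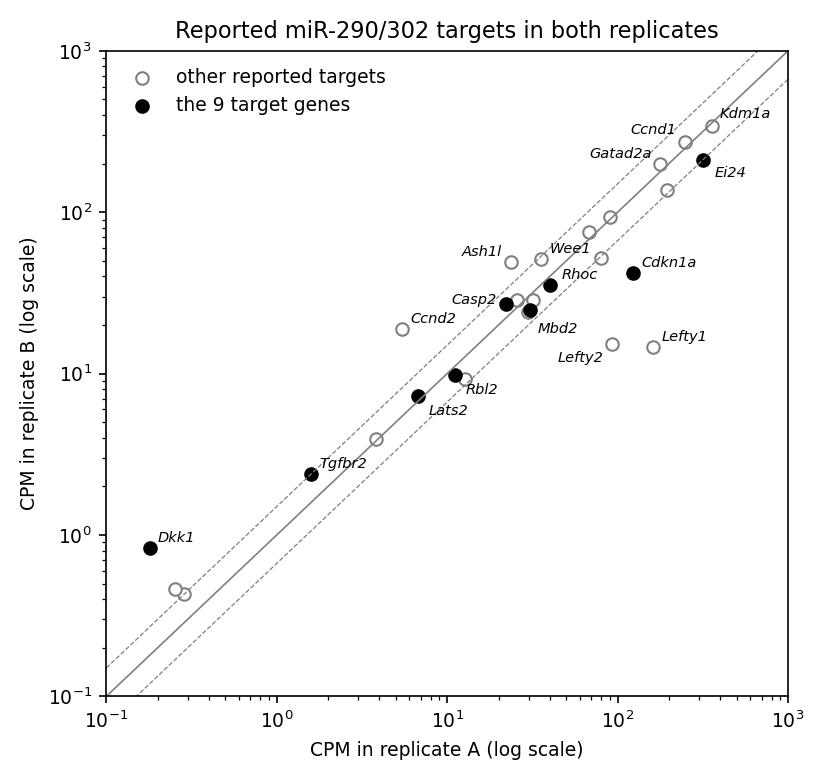
CPM in replicate A against replicate B on log axes for the 9 target genes (filled) and 19 other reported targets (open). The solid line marks equal CPM and the dashed lines 1.5-fold, and Cdkn1a, Lefty1 and Lefty2 lie well below them, with Ccnd2 and Dkk1 above.

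The pathways in which the 9 genes act were represented by 80 partner genes, the paralogs included, of which 75 passed the filter. Of these, 62 differed between the replicates, 19 higher in A and 43 higher in B, with a median log2 ratio of 0.20. Over all genes tested 76.5% differed, 38.2% higher in A and 38.3% higher in B, and the lists that follow are to be read against these shares. At 1.5-fold or more there were 6 higher in A and 18 higher in B, and 4 and 10 with GC and length corrected. The shares of all genes at 1.5-fold or more were 19.4% and 18.5% without that correction. They were not computed with it, so the corrected counts have no like share beside them.

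Around the cell cycle brakes, 1 of 9 G1 and S phase genes was higher in A and 7 in B, with cyclin E1 (Ccne1) the highest per length at 185 RPKM. With GC and length corrected, the log2 ratio of E2f1, the gene higher in A, went from -0.44 to 0.06. Of 8 Hippo pathway genes, 6 were higher in B and none in A at an adjusted p under 0.05 by the exact binomial test without GC and length correction. With that correction the log2 ratios of Stk3, Sav1 and Wwtr1 turned negative, from 0.14, 0.11 and 0.32 to -0.29, -0.28 and -0.08. That of Yap1 fell from 0.51 to 0.09, and those of Stk4, Mob1a, Mob1b and Nf2 were 0.32 to 0.56. Nf2, which activates the Lats kinases, was highest at 44.1 RPKM. Around Casp2, 3 cell death genes of 8 were higher in A and 3 in B, led by the proapoptotic gene Bax at 250.0 RPKM. Those higher in A were Bax, Trp53 and Pidd1. With GC and length corrected, their log2 ratios went from -0.69, -0.18 and -0.18 to 0.12, 0.01 and 0.18. That of Apaf1, higher in B, went from 0.23 to -0.26, and those of Bak1 and Bid stayed positive. Around Ei24, 1 autophagy gene of 7 was higher in A and 4 in B. With the correction the log2 ratio of Atg3, higher in B, went from 0.23 to -0.01. Vmp1 had the highest mean at 18.6 RPKM, with 16.9 in A and 20.3 in B. In A, Becn1 (18.9 RPKM) and Atg5 (18.2) were higher than Vmp1. With the union of all exons the mean of Atg5 (17.6) exceeded that of Vmp1 (13.4).

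Around Tgfbr2, 6 of 8 genes of the TGF-beta pathway were tested, 3 higher in A and 3 in B. With GC and length corrected, the log2 ratio of Smad2, higher in B, went from 0.58 to -0.04. The other tested genes of this list kept their signs. The inhibitor Smad7 had the highest mean at 23.1 RPKM, with 27.6 in A and 18.5 in B. In B, Skil (27.3 RPKM) and Smad4 (22.3) were higher than Smad7. Of 10 NuRD genes 2 were higher in A and 7 in B, led by the histone chaperone gene Rbbp7 at 228 RPKM. With the correction the log2 ratio of Mta3, higher in A, went from -0.12 to 0.07. That of Rbbp4, higher in B, went from 0.33 to -0.03. Around Dkk1, 5 of 6 genes were tested, with 2 higher in A and 1 in B, and the secreted Wnt inhibitor Sfrp1 was highest at 14.9 RPKM.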

How the data were processed

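The deposited values are raw counts per Ensembl gene, 1 library per file, not normalized by the authors. STAR 2.4.2a, featureCounts 1.4.5-p1 and mm10 are listed, with no role, in the submitters' processing notes. The sources used here give neither the annotation release nor the strand setting or handling of multi-mapping reads. Names, transcripts and 3′ UTRs came from GENCODE M21 (GRCm38, the assembly of mm10), which matched 42548 of 43629 identifiers.

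CPM used library totals and RPKM the longest transcript. Replicates were compared by a two-sided exact binomial test on TMM-scaled library sizes (edgeR 4.0.16, R 4.3.3, TMM factors 1.03 and 0.968), for genes that reached 1 CPM in A or B, with Benjamini-Hochberg adjustment over all 14583. Log2 ratios used a pseudocount of 0.5. The loess correction used GC content and log2 length. The test was also run on simulated counts that held counting noise only and a set of changed genes. Those counts had no GC trend, so that run does not tell how the test behaves on these data. P-values set the difference between these 2 samples against counting error only, and that difference may be technical. Intervals are Poisson or binomial limits and also cover counting error only. Without molecular identifiers PCR copies count as separate reads, so the true counting error may be larger.

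Near-identical transcripts (95% identity over 100 bases) were searched with BLAST 2.17.0. Alternatives included DESeq2 1.42.0 size factors. The members and lists were chosen with earlier results of these data known. All 9 members and the paralogs were to be named, the highest partner per length in each list and those at 0, and of other targets the 3 highest and up to 3 per direction at 1.5-fold or more. Further genes are named where a statement depends on them. 1 paralog and 1 partner list, which are within the totals, are not reported here.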

Additional observations from a re-analysis of the deposited data

How the results depend on the processing

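Leaving out 1 replicate gave a median level of the 9 genes of 22.0 to 24.6 CPM against 24.4 with both, and 5 to 9 of the 9 genes kept their rank per length. Without TMM, and with Fisher's exact test on library totals, 1 target gene in place of 2 was higher in B, since Tgfbr2 was lost, and 4 in place of 3 in A. Without the filter on low counts 2 target genes in place of 1 differed by 1.5-fold or more, 1 of them, Dkk1, higher in B. With GC and length corrected, 14 partner genes in place of 24 did so (10 in place of 18 higher in B), and 3 other reported targets in place of 5 (1 in place of 3 higher in B), and the log2 ratios of Rhoc and Mbd2 reversed to 0.53 and 0.26. With a pseudocount of 0.1, chosen for these counts after seeing the data, 2 target genes differed by 1.5-fold or more, 1 of them, Tgfbr2, higher in B. Of single target genes, Rbl2 and Rhoc passed the threshold with the correction, Rhoc higher in B (adjusted p = 8.34e-17, exact binomial test). Rhoc passed it in the other direction, higher in A, without TMM or with Fisher's test (log2 ratio -0.17, adjusted p = 0.00676 in both). Tgfbr2 no longer passed it under these 3 settings. The other counts stayed within 1.5 times of those given, though not always with the same split (without TMM 3 other reported targets were higher in A and 2 in B at 1.5-fold or more). The causes were not tested. All 9 genes also held a 7-base match in the 3′ UTR of the longest coding transcript. Without TMM the median log2 ratio of all genes was -0.10, and 6418 genes were called higher in A and 4837 in B. No paired analysis was possible because the series holds 1 group. Depth limits Dkk1 and Tgfbr2, at 5 to 72 counts.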
